A study of Mus musculus with 18 samples.

Results

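The genes described here are 35 genes of glycolysis and of the response to low oxygen, listed by name for their known roles. For 33 of them at least 1 probe set was assigned to a single gene, out of 19475 genes with such a probe set, and Gpi1 and Eno1 are not analysed here. They were read in macrophages grown from mouse bone marrow (BMDM), collected on the 7th day of differentiation, from mice of mixed descent, 94% C57BL/6 and 6% 129/Ola. The animals were Wbp7-/- (KO) or Wbp7+/- (HET). Wbp7, now named Kmt2b, encodes a methyltransferase that acts on lysine 4 of histone H3. The 6 groups were untreated KO, KO given lipopolysaccharide (LPS, 10 ug/ml, a bacterial wall component sensed by Tlr4) for 2 h and for 4 h, and the same 3 conditions in HET, each on 3 Affymetrix arrays. HET cells, which also carry 1 altered Wbp7 allele, were the controls. The sources used here do not say how the alleles were made. The labels give replicate numbers but do not say that they stand for separate mice or cultures, so the p-values measure the spread between these samples, which may be technical.

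Glycolysis splits glucose into pyruvate in the cytosol. Its upper steps trap and phosphorylate glucose, its lower steps yield ATP, and lactate dehydrogenase turns pyruvate into lactate for export. The transcription factor HIF pairs an oxygen-regulated alpha subunit (Hif1a or Epas1) with a stable partner. Prolyl hydroxylases (the Egln genes) mark the alpha subunit in the presence of oxygen, and Vhl then directs it to degradation. Many glycolytic enzymes, secreted vascular factors and collagen-modifying enzymes are known HIF targets. Macrophages given LPS are known to raise glycolysis, and Hif1a is known to be induced through NF-kB in them.

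The promoters of Edn1 and Pfkfb4 are shown because both genes differed between the genotypes after LPS, and because Edn1 had the largest called rise and Pfkfb4 the largest called fall with LPS. Plod2 also differed between the genotypes, but no RefSeq promoter was at hand for it. The sequences are those of RefSeq (GRCm38.p6), plus strand, running from 250 bases before to 50 bases after the annotated start, and capitals mark the motifs that were searched for. In Edn1 the capitals are the core of a hypoxia response element on the minus strand. In Pfkfb4 the first capitals are such a core (GCGTG), and the later 4 runs match the core of a kB site, which is GGG and CC with any 5 bases between them.
Edn1, chr13:42301226-42301525: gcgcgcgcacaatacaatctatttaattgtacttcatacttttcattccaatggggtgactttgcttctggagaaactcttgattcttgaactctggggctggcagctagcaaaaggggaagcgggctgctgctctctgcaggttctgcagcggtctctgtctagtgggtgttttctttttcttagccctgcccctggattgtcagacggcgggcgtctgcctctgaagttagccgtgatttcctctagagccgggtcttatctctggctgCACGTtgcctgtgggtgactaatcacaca
Pfkfb4, chr9:108991652-108991951: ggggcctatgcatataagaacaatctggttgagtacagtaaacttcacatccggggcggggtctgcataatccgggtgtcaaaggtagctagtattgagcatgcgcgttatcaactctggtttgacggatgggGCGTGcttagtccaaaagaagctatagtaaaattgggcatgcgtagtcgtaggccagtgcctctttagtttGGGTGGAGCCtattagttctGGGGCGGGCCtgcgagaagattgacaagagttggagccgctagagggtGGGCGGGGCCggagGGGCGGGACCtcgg

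Counted from 0 at the annotated start, the Edn1 core began at 21 and the Pfkfb4 core at -117, while the 4 kB matches of Pfkfb4 began at -46, -26, 22 and 36. RefSeq promoters were at hand for 30 of the 33 members, which have 43 promoters between them, and for 32851 promoters in all. Both strands were searched for the cores of the hypoxia response element, ACGTG and GCGTG. They were also searched for the E-box CACGTG, which contains the first of these, and for the kB core. ACGTG was found in 60.5% of the members' promoters, against 19.6% of all promoters, and GCGTG in 46.5% against 32.4%. Either of these cores stood in 79.1% against 43.8%, the E-box in 11.6% against 7.15%, and the kB core in 72.1% against 50.8%. These shares describe letters in a window and were not matched for base composition.

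Before the results, the arrays themselves need a description. HET replicate 1 did not resemble HET replicates 2 and 3, untreated or with LPS. Set against either of them, its SD of the difference over all genes was 0.435 to 0.531 log2 units, against 0.175 to 0.279 for the other pairs within groups. Over the members alone it was 0.588 to 0.875, against 0.222 to 0.545. On the 3 arrays of HET replicate 1 the mean log2 signal of 11 cell cycle genes was 9.38 (untreated), 9.06 (2 h) and 8.70 (4 h), against 11.26 to 12.17 on the other HET arrays. The probe set of Wbp7 itself read 10.41 ± 0.0627 in KO against 10.66 ± 0.27 in HET in untreated cells (SD, n = 3 each), a difference of -0.24 (adjusted p = 1), and -0.06 and -0.09 at 2 h and 4 h. The sources used here do not say which part of the gene the probe set or the alteration covers, so it does not check the labels. Macrophage markers were strong on all arrays, with a mean log2 signal of 12.77 to 13.24 over 9 measured genes.

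All levels below are log2 signal, where 1 unit is a 2-fold difference, and all changes are log2 differences between means of 3 arrays, with the standard error (SE) that limma gives. A member is said to have risen, fallen or been called where its p, adjusted by Benjamini and Hochberg's method across the 19475 genes, was below 0.05. Precision is limited by how few arrays each group has, and in these bulk cultures fewer expressing cells and less RNA per cell cannot be told apart. Probe sets differ in affinity, so levels are not compared between genes.

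**Figure D1:**
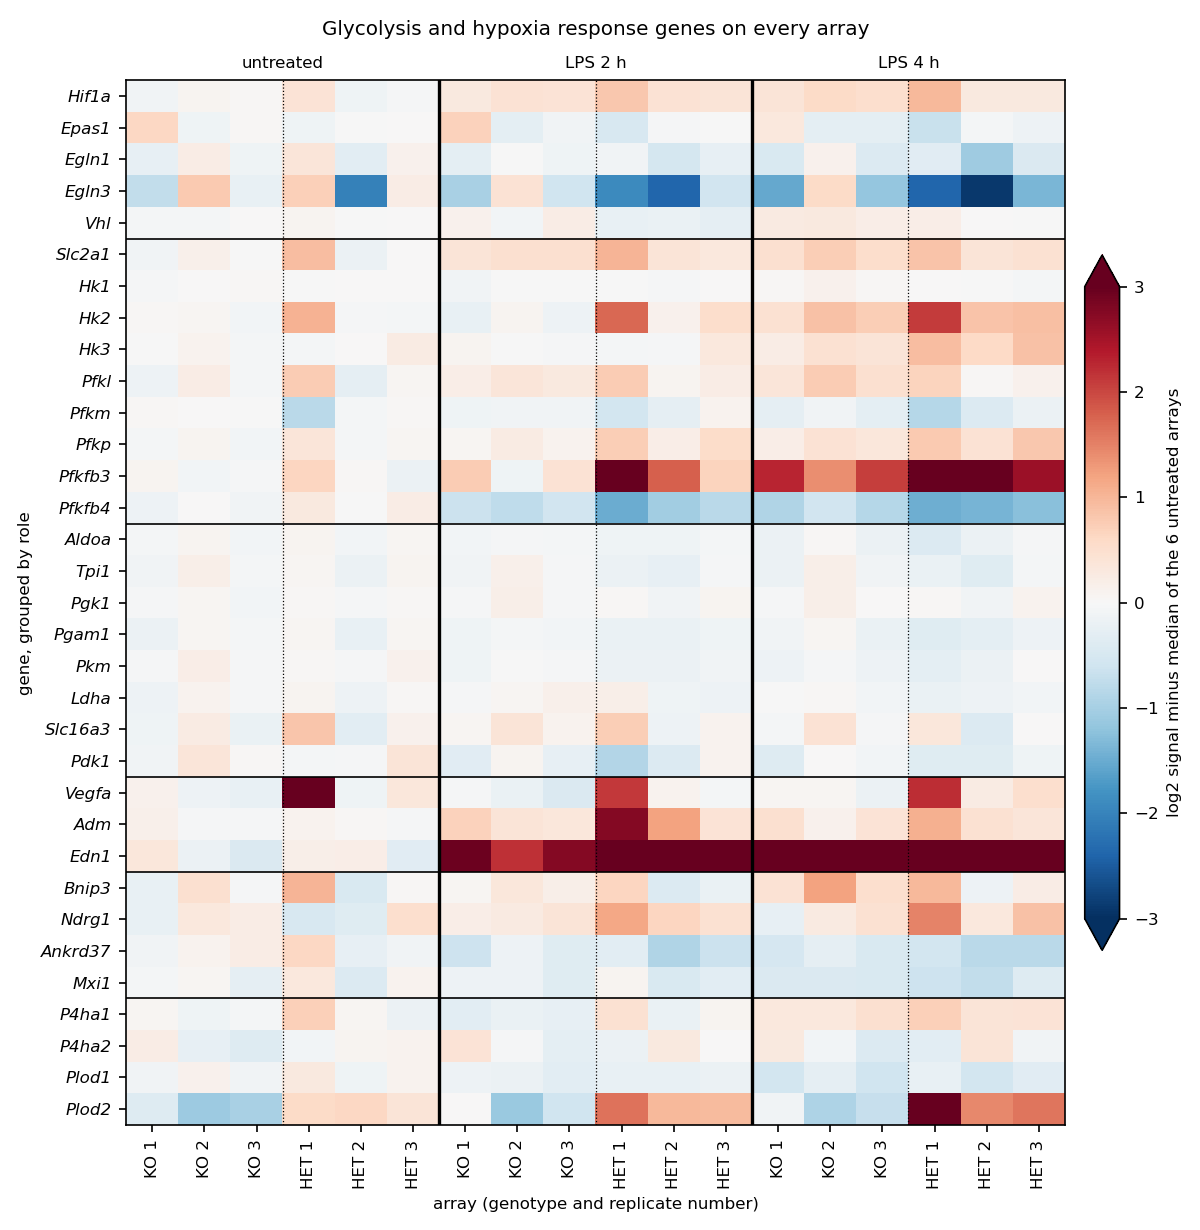
Colour gives the log2 signal of each of the 33 measured members (rows, grouped by role) on each of the 18 arrays (columns) minus that gene's median over the 6 untreated arrays, with colours capped at 3 units either way. Edn1 and Pfkfb3 darken with LPS in both genotypes, Plod2 is lower on the KO arrays, and the HET array numbered 1 differs from its neighbours in several rows.

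The members ranged widely in signal and in how much it varied. The 8 measured genes of lower glycolysis and lactate lay between the 72.7th and 99.6th percentile of mean signal over all genes, and the range of each over the 18 arrays was 0.303 to 1.26 units. This group includes Pdk1, which encodes a regulatory kinase and not a glycolytic enzyme. Aldoa, Tpi1, Pgk1, Pgam1, Pkm and Ldha lay at the 98.7th to 99.6th percentile and ranged over 0.303 to 0.542 units. Signals this bright are compressed, so a flat reading does not show unchanged RNA. The 3 secreted factors lay lower (31.9th to 66.8th percentile) and ranged over 2.8 to 6.62 units. Plod2 lay below the lower quartile of signal on 6 arrays, all KO, and Edn1 on 5, all untreated, so the size of their changes is less certain than that of brighter genes.

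KO against HET cells was the study's main contrast. In untreated cells limma called none of the 33 members, where 0.416% of all genes were called. At an unadjusted p under 0.05 there was 1 (3.03%), Plod2, against 4.44% of all genes. By that looser measure there were 8 (24.2%) at 2 h against 15% of all genes, and 8 (24.2%) at 4 h against 20.2%. At 2 h of LPS, Edn1 and Plod2 were lower in KO and no member was higher, which is 2 of 33 (6.06%). Of all genes 2.76% were called, 1.22% higher and 1.54% lower. At 4 h, Plod2 was lower and Pfkfb4 higher in KO, again 2 of 33. Of all genes 2.42% were called, 1.32% higher and 1.10% lower. With counts this small, the members' shares are not read as different from the background. The median difference of the members was -0.07, -0.01 and 0.08 at the 3 times, against -0.02, 0 and -0.06 over all genes. Without the HET arrays numbered 1 it was 0.02, 0.04 and 0.07, so its sign turned untreated and at 2 h, where 14 and 5 of the 33 members changed sign, none of them called. With HET replicate 1 left out the counts were 0, 2 and 3, against 0.606%, 2.14% and 4.52% of all genes. With replicate number as a block the counts were 0, 2 and 1, against 0.452%, 2.65% and 2.77%. Fitted on the 6 arrays of each contrast alone, no member was called at any of the 3 times, where 0.103%, 0.159% and 0.216% of all genes were.

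Edn1 (probe set 10404783) encodes the precursor of endothelin, a peptide that constricts blood vessels and that activated macrophages also release. Its signal in KO was 6.83, 6.33 and 6.06 untreated, 9.45, 8.69 and 9.26 at 2 h, and 11.49, 10.49 and 10.76 at 4 h. On the HET arrays it read 6.67, 6.71 and 6.15 untreated, 12.50, 10.41 and 10.90 at 2 h, and 12.68, 12.32 and 12.39 at 4 h. The genotypes overlapped before LPS, and at both later times every KO array lay below every HET array. Untreated, the difference was -0.10 (adjusted p = 1). It was -2.14 at 2 h (SE 0.413, adjusted p = 0.0148, 4.4-fold lower in KO) and -1.55 at 4 h (adjusted p = 0.0611), which was not called. With HET replicate 1 left out, both were called: -1.52 at 2 h (adjusted p = 0.0219) and -1.44 at 4 h (0.0189). Leaving out KO replicate 2 at 2 h gave -1.92 and ended the 2 h call (adjusted p = 0.0687).

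Plod2 (probe set 10587829) encodes a lysyl hydroxylase that modifies collagen for cross-linking. In KO it read 6.88, 6.17 and 6.29 untreated, 7.27, 6.15 and 6.66 at 2 h, and 7.15, 6.34 and 6.58 at 4 h. HET gave 7.84, 7.88 and 7.65 untreated, 8.89, 8.24 and 8.22 at 2 h, and 10.32, 8.70 and 8.86 at 4 h. Every KO array lay below every HET array of its time, including the untreated ones. At each time 2 of the 3 KO arrays and none of the HET arrays lay below the lower quartile of signal, so the KO level is poorly measured and no fold is given. The difference, KO minus HET, came to -1.34 without LPS (SE 0.377, adjusted p = 0.28, not called), -1.76 at 2 h (SE 0.377, adjusted p = 0.0233) and, by 4 h, -2.60 (adjusted p = 0.00243). Without the HET arrays numbered 1 the values were -1.32 (adjusted p = 0.0829), -1.54 (0.0168) and -2.09 (0.00184). The 2 h call was lost without KO replicate 2 (-1.48), KO replicate 3 (-1.74) or HET replicate 1 (-1.54) of that time, with an adjusted p up to 0.127.

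Pfkfb4 (probe set 10589329), with Pfkfb3, encodes a bifunctional enzyme that makes and breaks down the main allosteric activator of phosphofructokinase. In KO it read 9.84, 9.99 and 9.87 untreated, 9.34, 9.21 and 9.41 at 2 h, and 9.07, 9.40 and 9.13 at 4 h. Its HET signal was 10.28, 9.97 and 10.20 untreated, 8.49, 8.94 and 9.18 at 2 h, and 8.52, 8.59 and 8.73 at 4 h. KO and HET overlapped before LPS, and every KO array lay above every HET array at 2 h and at 4 h. The difference was 0.45 at 2 h, which was not called (adjusted p = 0.126), and 0.59 at 4 h (SE 0.146, adjusted p = 0.0466, 1.5-fold higher). That 4 h call was just inside the threshold: it held in 9 of 28 alternative settings, being lost with replicate number as a block and in 14 of 18 fits that each left out 1 array (0.49 to 0.66, adjusted p up to 0.227). The highest p came without KO replicate 2 at 4 h.

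**Figure D2:**
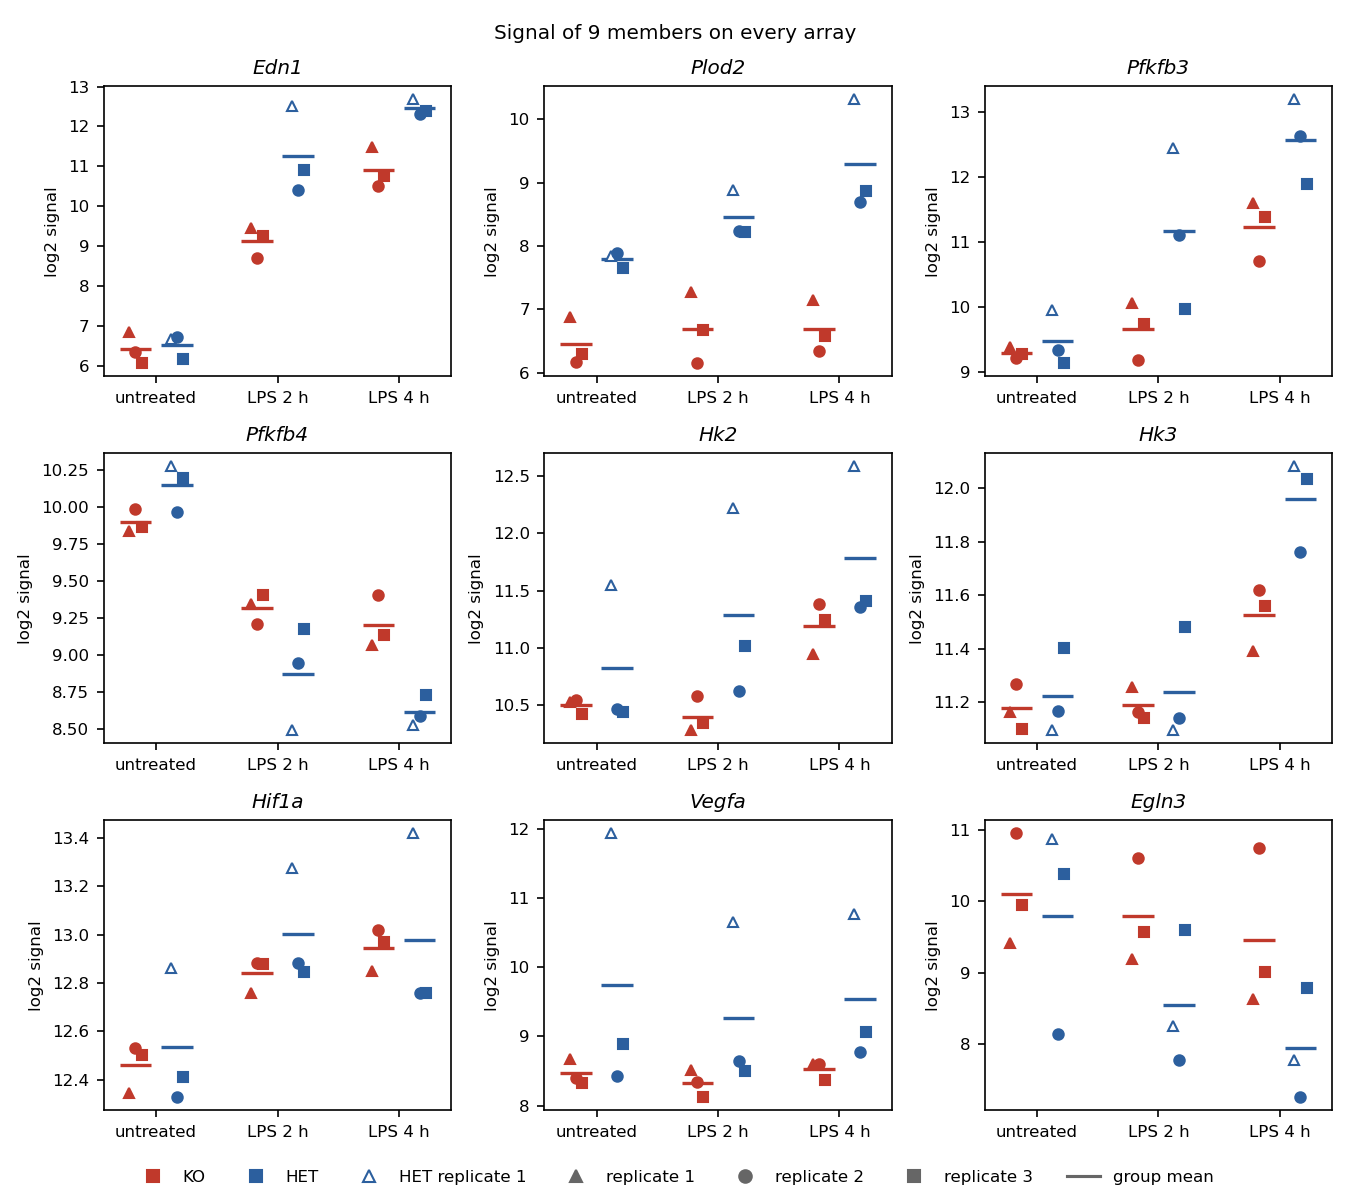
Points give the log2 signal of 9 members on every array by time, red for KO and blue for HET, with bars at the group means, marker shapes for replicate numbers and an open triangle for HET replicate 1. Edn1, Plod2 and Pfkfb4 separate by genotype after LPS, while the highest values of Vegfa and Hk2 are those of HET replicate 1.

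None of the other members was called between genotypes. The difference of Pfkfb3 was -1.50 at 2 h (adjusted p = 0.117) and -1.33 at 4 h (0.145), with no overlap of arrays at 4 h. Vhl showed 0.32 at 2 h (adjusted p = 0.0513) and Hk3 showed -0.43 at 4 h (adjusted p = 0.0651), both without overlap. Vegfa, the growth factor of blood vessels (like Egln3 and Hk3 described from its array values after these were seen), read 8.67, 8.40 and 8.33 in untreated KO against 11.94, 8.43 and 8.88 in untreated HET. Its difference of -1.29 (adjusted p = 1) was -0.19 without the HET arrays numbered 1. At 4 h all KO arrays of Vegfa lay below the HET arrays and those of Hk1 and Ankrd37 above them. At 2 h those of Hk2, Ndrg1 and P4ha1 lay below. For Hk1 the difference at 4 h was only 0.08, and its other probe set gave -0.3. How many of all genes separate in this way was not counted, so a lack of overlap is not read as a result about the members. For the 8 genes of lower glycolysis and lactate, the fitted difference lay between -0.24 and 0.23 at all 3 times, and between -0.08 and 0.33 without the HET arrays numbered 1. The 95% interval for Ldha, which makes lactate, was -0.24 to 0.19 untreated, -0.12 to 0.30 at 2 h and -0.09 to 0.33 at 4 h. Its signal lay in the compressed range noted above, so these intervals may understate a difference in RNA.

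**Figure D3:**
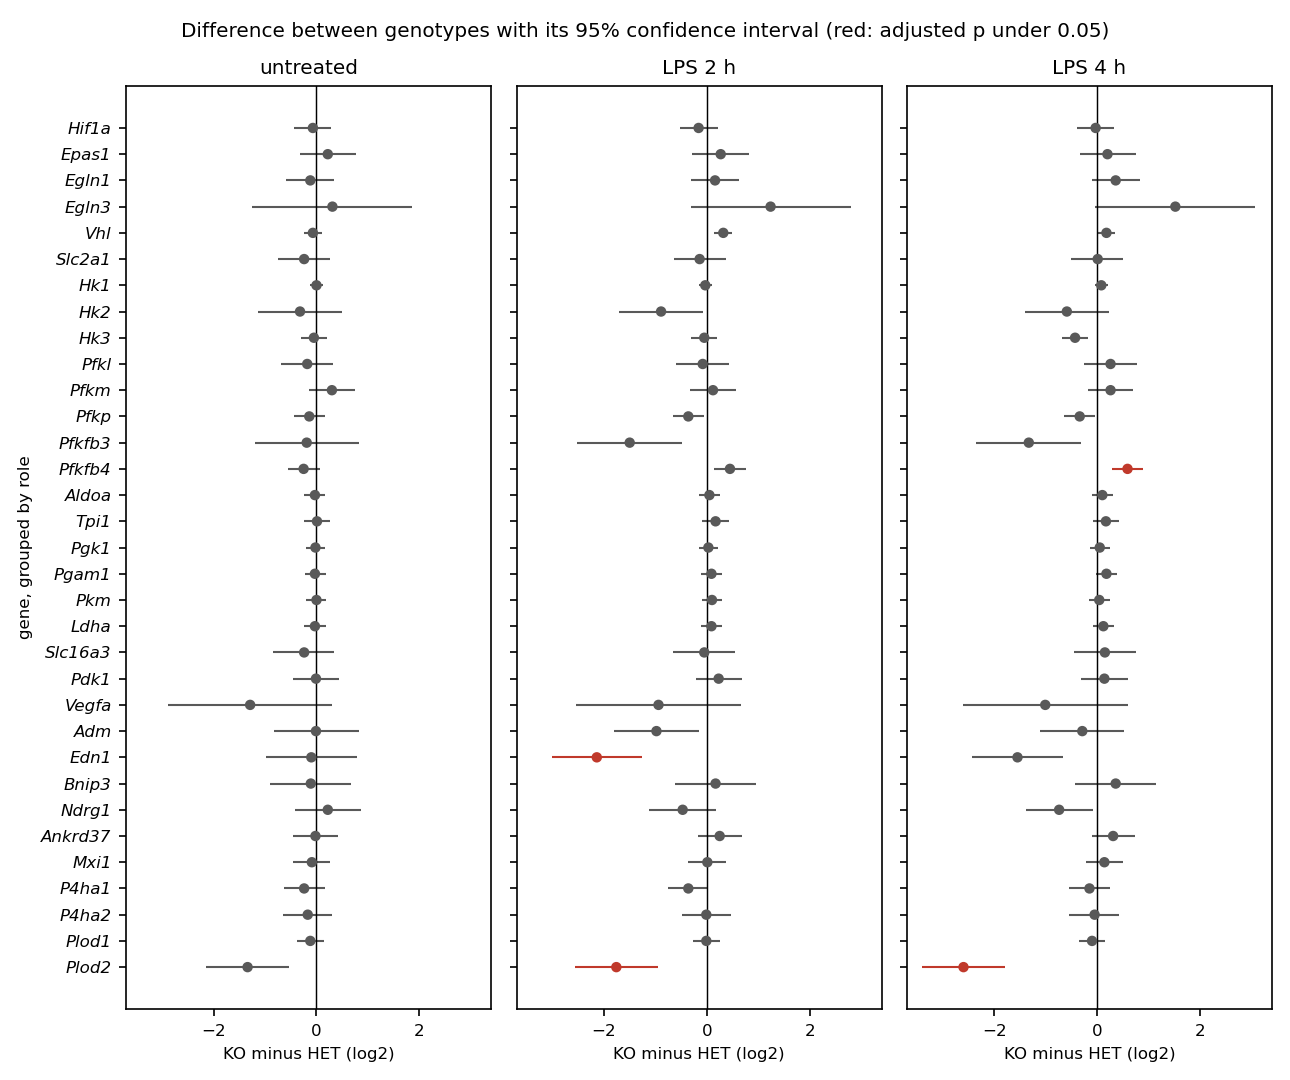
Points give KO minus HET in log2 units for each measured member untreated, at 2 h and at 4 h, with lines for the 95% confidence interval and red for an adjusted p under 0.05. Edn1 and Plod2 at 2 h, and Plod2 and Pfkfb4 at 4 h, are red.

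Endothelial cells are a known source of Edn1 and stromal cells of Plod2, so their markers were read beside these genes. The summed level of 6 endothelial markers (log2 of their summed linear signal) was 10.05 to 10.49 in KO and 10.25 to 10.78 in HET untreated, 10.08 to 10.51 in KO and 10.42 to 10.89 in HET at 2 h, and 10.41 to 11.22 in KO and 11.04 to 11.89 in HET at 4 h. Emcn lay below the lower quartile of signal on all 18 arrays and Tek on 17, and none of the 6 was called between genotypes. Kdr, 1 of the 6, was still lower on every KO array than on every HET array of its time. Untreated it read 7.26 to 8.01 in KO and 8.35 to 9.11 in HET. It read 7.21 to 7.97 and 8.52 to 9.2 at 2 h, and 7.99 to 9.61 and 9.8 to 10.51 at 4 h. Of the 6 differences, 3 lay below 0 untreated, 4 at 2 h and 6 at 4 h. The summed level of 10 stromal markers was 10.75 to 11.32 in KO and 10.84 to 11.3 in HET untreated, 10.96 to 11.4 in KO and 10.95 to 11.5 in HET at 2 h, and 11.05 to 11.5 in KO and 11.17 to 11.7 in HET at 4 h. Lum lay below the lower quartile on all 18 arrays, Fap on 13 and Postn on 10, and none of the 10 was called between genotypes. The part of such cells in the differences of Edn1 and Plod2 was not tested.

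The response to LPS was read in each genotype against its own untreated arrays, which the 2 h and 4 h comparisons share. At 2 h, 2 of 33 members were called in KO (6.06%), 1 up and 1 down, against 3.35% of all genes (2.00% up, 1.35% down). In HET 6 were called (18.2%), 3 up and 3 down, against 15.6% (5.56% up, 10.0% down). At 4 h, 5 were called in KO (15.2%), 3 up and 2 down, against 15.8% of all genes (6.48% up, 9.28% down). In HET 11 were called (33.3%), 6 up and 5 down, against 36.4% (15.7% up, 20.7% down). These shares lie near the background, so the members as a list did not stand out, and their median change was between -0.05 and 0.07 in all 4 comparisons. Arrays of the same number within a genotype deviated together, and with replicate number as a block 3 members were called in KO and 12 in HET at 2 h, and 15 in KO and 18 in HET at 4 h. The blocked shares of all genes were 7.30% in KO and 25.6% in HET at 2 h, and 26.0% in KO and 53.7% in HET at 4 h. Fitted on the 6 arrays of the contrast alone, 5 members were called in KO and 2 in HET at 2 h, and 14 in KO and 5 in HET at 4 h. The shares of all genes in those fits were 8.24% in KO and 5.73% in HET at 2 h, and 25.7% in KO and 20.5% in HET at 4 h.

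Without the HET arrays numbered 1, 5 members were called in KO and 7 in HET at 2 h, against 8.36% and 14.3% of all genes. At 4 h, 14 were called in KO and 12 in HET, against 27.7% and 35.5%. The KO arrays and their fold changes were the same in both fits, and the estimate of spread shared by all groups was not.

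Among the genes that sense oxygen, Hif1a itself, the oxygen-regulated subunit, was higher with LPS in every number-matched pair of arrays but missed the threshold. In KO it read 12.34, 12.53 and 12.50 untreated, 12.76, 12.88 and 12.88 at 2 h, and 12.85, 13.02 and 12.97 at 4 h. In HET it read 12.86, 12.33 and 12.41 untreated, 13.28, 12.88 and 12.85 at 2 h, and 13.42, 12.76 and 12.76 at 4 h. HET replicate 1 was the highest array at each time, and all KO arrays after LPS lay above the untreated ones. The changes were 0.38 in KO (adjusted p = 0.391) and 0.47 in HET (0.0858) at 2 h, and 0.49 in KO (0.0724) and 0.45 in HET (0.0553) at 4 h. All 4 passed both with the block (adjusted p 0.00281 to 0.0417) and without the HET arrays numbered 1 (0.000186 to 0.00452).

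The genes that turn HIF over gave few calls. Vhl, the substrate receptor of the ligase for hydroxylated HIF, read 9.82, 9.82 and 9.87 in untreated KO, 10.01, 9.79 and 10.09 at 2 h, and 10.14, 10.17 and 10.06 at 4 h. The HET arrays read 9.96, 9.87 and 9.90 untreated, 9.65, 9.68 and 9.60 at 2 h, and 10.07, 9.89 and 9.87 at 4 h. It rose by 0.28 at 4 h in KO (adjusted p = 0.0274) and fell by 0.27 at 2 h in HET (adjusted p = 0.0378), both small. The KO call held in 22 of 28 alternative settings and the HET call in 16. Leaving out 1 array moved the changes only to 0.26 to 0.31 in KO and -0.29 to -0.24 in HET, yet ended the call in 5 and 7 of 18 such fits (adjusted p up to 0.0894 in KO and 0.105 in HET).

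Egln1, the main prolyl hydroxylase of HIF, read 10.47, 10.94 and 10.58 in untreated KO, 10.43, 10.71 and 10.59 at 2 h, and 10.26, 10.84 and 10.30 at 4 h. HET values were 11.09, 10.39 and 10.86 untreated, 10.62, 10.19 and 10.47 at 2 h, and 10.37, 9.66 and 10.28 at 4 h. It fell by 0.68 in HET at 4 h (SE 0.219, adjusted p = 0.0253), with no overlap of arrays, and the KO value was -0.19 (adjusted p = 0.625). The HET call was lost without HET replicate 1 at all times (-0.66, adjusted p = 0.0506), and without untreated replicate 1 (-0.52), untreated replicate 3 (-0.64) or replicate 2 at 4 h (-0.45, adjusted p = 0.11). Egln3, a further prolyl hydroxylase and itself a HIF target, varied widely between replicates, from 8.14 to 10.87 among untreated HET arrays. It was lower in all 6 number-matched pairs at both times, with a mean change at 4 h of -0.64 in KO (adjusted p = 0.625) and -1.85 in HET (0.0587, and 0.00453 with the block). In HET replicate 1 the change was -3.09, and without the HET arrays numbered 1 the mean was -1.24 (adjusted p = 0.29). Epas1, the closest relative of Hif1a, was not called in any comparison.

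In glucose uptake and upper glycolysis, 9 of 10 listed genes were measured. At 4 h, Pfkfb3 rose and Pfkfb4 fell in both genotypes, and Hk3 and Pfkp also rose in HET, so that 2 of 9 were called in KO and 4 of 9 in HET, against 15.8% and 36.4% of all genes. These counts and their order depended on the fit. With the block 7 were called in KO and 5 in HET, against 26.0% and 53.7% of all genes, and without the HET arrays numbered 1 there were 7 in KO and 6 in HET, against 27.7% and 35.5%. Pfkfb3 (probe set 10480035), the isoenzyme that favours synthesis of the phosphofructokinase activator, read 9.40, 9.22 and 9.28 in untreated KO, 10.07, 9.19 and 9.75 at 2 h, and 11.60, 10.72 and 11.39 at 4 h. On the HET arrays it read 9.97, 9.35 and 9.14 untreated, 12.44, 11.10 and 9.97 at 2 h, and 13.19, 12.63 and 11.89 at 4 h. All arrays at 4 h lay above the untreated ones of their genotype. The change at 2 h was 0.37 in KO (adjusted p = 0.85) and 1.69 in HET (SE 0.478, adjusted p = 0.0249) with HET arrays between 9.97 and 12.44. At 4 h it rose by 1.94 in KO (adjusted p = 0.0105, 3.83-fold) and by 3.08 in HET (adjusted p = 0.000132, 8.48-fold). Leaving out HET replicate 1 gave HET changes of 1.29 at 2 h (adjusted p = 0.034) and 3.01 at 4 h. The HET call at 2 h was lost without untreated replicate 2 (1.62), untreated replicate 3 (1.52) or replicate 1 at 2 h (1.05, adjusted p = 0.138), and the KO call at 4 h without KO replicate 1 of that time (1.76, 0.0554).

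Pfkfb4 moved the other way. From the values given above, it fell by 0.58 at 2 h (SE 0.146, adjusted p = 0.0392) and by 0.70 at 4 h (adjusted p = 0.00343) in KO. In HET it fell by 1.28 at 2 h (adjusted p = 2.2e-05) and by 1.54 at 4 h (adjusted p = 1.55e-06). In each genotype no LPS array overlapped the untreated ones. The fall in KO at 2 h was lost in 9 of the 18 fits without 1 array (-0.62 to -0.52, adjusted p up to 0.166).

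The hexokinases trap glucose as its phosphate. Hk2 read 10.53, 10.54 and 10.42 in untreated KO, 10.28, 10.58 and 10.34 at 2 h, and 10.95, 11.38 and 11.24 at 4 h. HET gave 11.55, 10.47 and 10.44 untreated, 12.22, 10.62 and 11.02 at 2 h, and 12.59, 11.36 and 11.41 at 4 h. HET replicate 1 lay above all other arrays of its time, and all 6 number-matched pairs were higher at 4 h. The change at 4 h was 0.69 in KO (adjusted p = 0.28) and 0.96 in HET (adjusted p = 0.062). When HET replicate 1 was left out these were 0.69 (adjusted p = 0.000653) and 0.93 (adjusted p = 0.000262), both called, and both were also called with the block (0.0354 in KO and 0.00261 in HET).

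Hk3 read 11.39, 11.62 and 11.56 in KO at 4 h against 11.16, 11.27 and 11.10 in untreated KO, and 12.08, 11.76 and 12.04 in HET at 4 h against 11.10, 11.17 and 11.40 in untreated HET. It rose by 0.74 in HET (SE 0.118, adjusted p = 0.000178), a call that held in all 28 alternative settings, and the KO value was 0.35 (adjusted p = 0.0598), called with the block (0.0109) and without the HET arrays numbered 1 (0.028). For Hk1 the brightest probe set ranged over 0.241 units on the 18 arrays, the smallest range among the members. Its other probe set, matched to more transcripts, gave 0.32 in KO (adjusted p = 0.143) and 0.53 in HET (SE 0.134, adjusted p = 0.0062 among all probe sets) at 4 h, so the 2 probe sets disagreed.

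Slc2a1, the glucose transporter of most cells, read 12.81, 13.06 and 12.89 in untreated KO, 13.30, 13.38 and 13.38 at 2 h, and 13.38, 13.66 and 13.43 at 4 h. Its HET signal was 13.84, 12.73 and 12.93 untreated, 13.94, 13.30 and 13.23 at 2 h, and 13.77, 13.31 and 13.37 at 4 h. The KO arrays after LPS were all above the untreated ones, and untreated HET replicate 1 was already above HET replicates 2 and 3 after LPS. The changes of 0.43 and 0.57 in KO and 0.33 and 0.32 in HET at 2 h and 4 h were not called (adjusted p 0.132 to 0.532). With those arrays removed at all times they were 0.43 and 0.57 in KO and 0.44 and 0.51 in HET, all called (0.000313 to 0.0166). Of the phosphofructokinase genes, Pfkp rose by 0.55 in HET at 4 h (SE 0.141, adjusted p = 0.00696) with a KO value of 0.35 (adjusted p = 0.121). The KO value of Pfkp was called with the block (0.0112) and without the HET arrays numbered 1 (0.037). Pfkl had 0.53 in KO at 4 h (adjusted p = 0.171), which was also called in both of those fits (0.0137 and 0.00493), and Pfkm was called in none of the 3.

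The 8 measured genes of lower glycolysis and lactate gave no call under limma in any LPS comparison of either genotype. The brightest of them lay where signals are compressed, so the lack of calls does not show that their RNA was unchanged. At an unadjusted p under 0.05 there were 0 of 8 in KO at both times, against 12% and 26.4% of all genes, and 2 at 2 h and 3 at 4 h in HET, against 26.3% and 47.4% of all genes in HET. Ldha read 13.58, 13.82 and 13.68 in untreated KO, 13.70, 13.78 and 13.87 at 2 h, and 13.71, 13.77 and 13.64 at 4 h. In HET it read 13.82, 13.57 and 13.77 untreated, 13.89, 13.60 and 13.58 at 2 h, and 13.52, 13.58 and 13.65 at 4 h. Its arrays overlapped between all groups compared, with changes of 0.09 and 0.01 in KO and -0.03 and -0.13 in HET. Pgk1, a kinase of an ATP-yielding step, had differences of 0.05 and 0.07 in KO and 0 at both times in HET, with a 95% interval of -0.20 to 0.19 for HET at 4 h. With the block, Aldoa (-0.22, adjusted p = 0.0279), Pgam1 (-0.23, 0.0201), Pkm (-0.20, 0.0216) and Pdk1 (-0.39, 0.0332) were lower in HET at 4 h, and at 2 h so were Pkm (-0.20, 0.0428) and Pdk1 (-0.49, 0.0183), against 53.7% and 25.6% of all genes called.

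**Figure D4:**
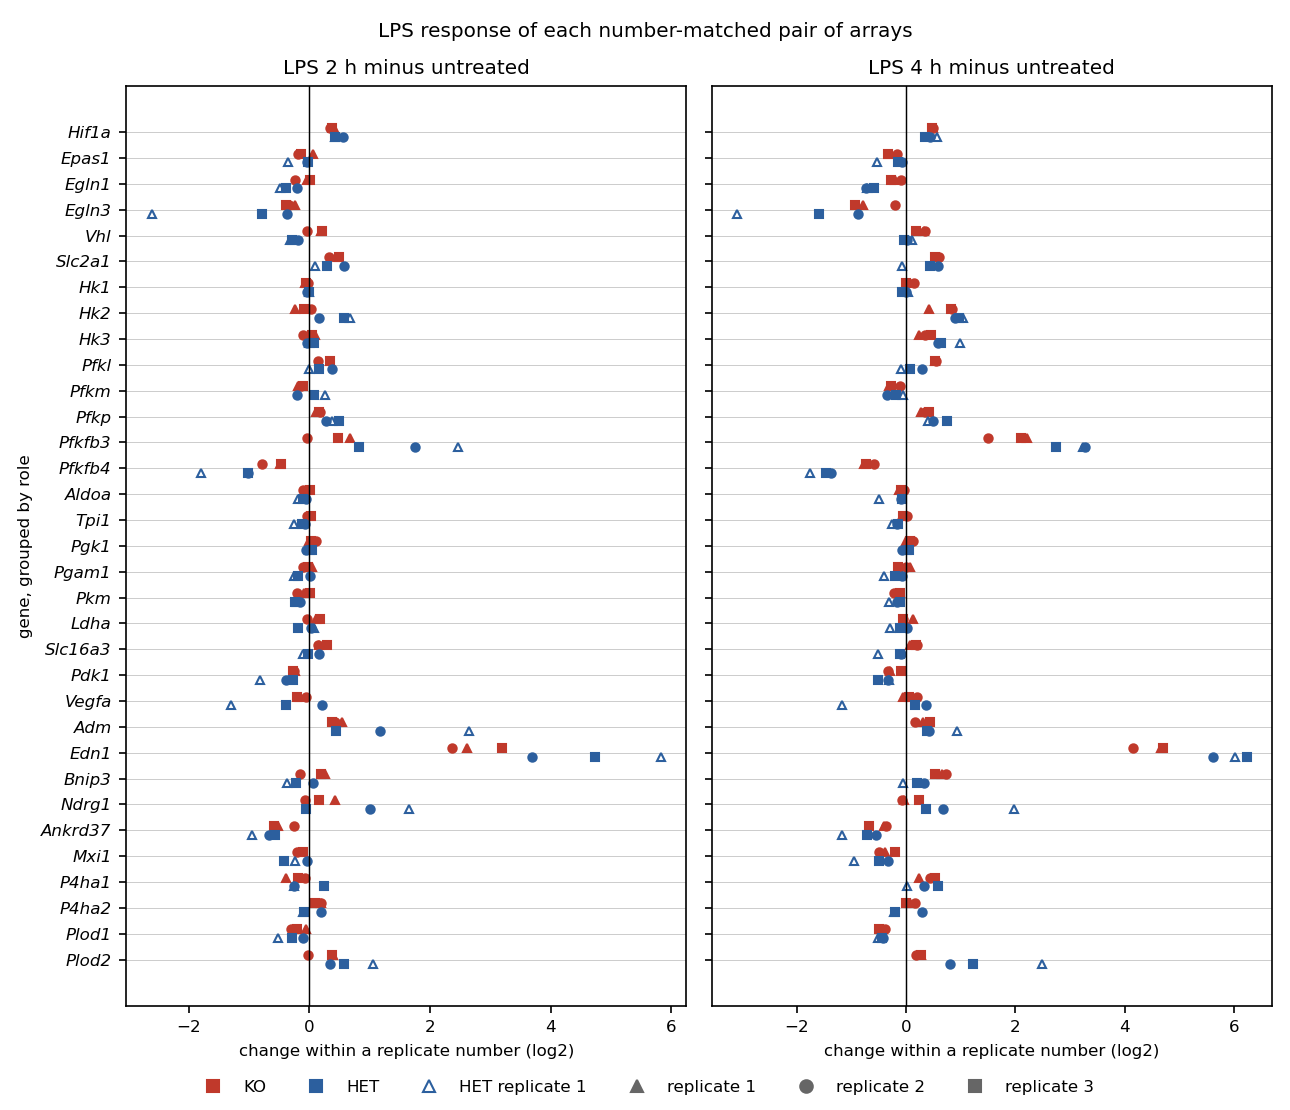
Points give the log2 change of each measured member as the LPS array minus the untreated array of the same replicate number, at 2 h (left) and 4 h (right), red for KO and blue for HET, with an open triangle for HET replicate 1. Edn1 lies far right in both panels and Pfkfb3 at 4 h, and Pfkfb4 and Ankrd37 lie left of 0 in all 6 pairs. Most genes of the lower glycolysis and lactate group sit near 0. Pdk1, which is in that group but encodes a regulatory kinase and not a glycolytic enzyme, lies left of 0 in all 6 pairs.

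Edn1 had the largest change of all members. It rose by 2.72 at 2 h (SE 0.413, adjusted p = 0.000917) and by 4.51 at 4 h (adjusted p = 2.14e-06) in KO. In HET it rose by 4.76 at 2 h (adjusted p = 1.73e-06) and by 5.95 at 4 h (adjusted p = 7.91e-08). These 4 calls held in all 28 alternative settings. No fold is given, since 2 of 3 untreated KO arrays and 3 of 3 untreated HET arrays lay below the lower quartile of signal, where the level is poorly measured. Of the 6 endothelial markers given above, 1 also rose in KO and 2 in HET at 4 h, where 6.48% and 15.7% of all genes rose. The part of these markers in the rise of Edn1 was not tested.

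Adm encodes adrenomedullin, a peptide that widens blood vessels. In KO it read 6.93, 6.74 and 6.74 untreated, 7.46, 7.15 and 7.11 at 2 h, and 7.24, 6.89 and 7.17 at 4 h. The HET arrays read 6.88, 6.80 and 6.73 untreated, 9.53, 7.98 and 7.17 at 2 h, and 7.83, 7.22 and 7.12 at 4 h. The highest value by far was HET replicate 1 at 2 h. Adm rose by 1.42 in HET at 2 h (SE 0.387, adjusted p = 0.0201) and the KO value was 0.44 (adjusted p = 0.751). Its untreated signal was close to the lower quartile of the arrays (6.71 to 6.99), so the size of the rise is less certain. Leaving out HET replicate 1 gave a HET rise of 0.81 (adjusted p = 0.017), and the call was lost without untreated HET replicate 2 (1.42, adjusted p = 0.0558) or 3 (1.38, 0.0607). Vegfa was not called for LPS in either genotype, and its HET value at 4 h turned sign, -0.21 with and 0.26 without the HET arrays numbered 1.

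Of the 4 other HIF targets, 3 were called in HET at 4 h and none in KO, against 36.4% and 15.8% of all genes. At an unadjusted p under 0.05 Ankrd37 was the only one in KO. With the block 3 were called in each genotype, against 53.7% of all genes in HET and 26.0% in KO. Without the HET arrays numbered 1 there were 2 in KO and 1 in HET, against 27.7% and 35.5%. The genotypes are therefore not set apart by these counts. Ankrd37, an ankyrin repeat gene, read 8.42, 8.62 and 8.73 in untreated KO, 7.90, 8.37 and 8.15 at 2 h, and 8.01, 8.26 and 8.07 at 4 h. HET values were 9.15, 8.27 and 8.42 untreated, 8.21, 7.61 and 7.87 at 2 h, and 7.97, 7.72 and 7.71 at 4 h. Neither genotype's LPS arrays overlapped its untreated ones. It fell by 0.72 at 2 h (adjusted p = 0.0233) and by 0.81 at 4 h (SE 0.202, adjusted p = 0.00541) in HET, and the KO values were -0.45 and -0.48 (adjusted p 0.379 and 0.138). The KO values were called at both times without the HET arrays numbered 1 (0.038 and 0.00961), and with the block at 4 h (0.0171). The HET call at 2 h was lost without untreated HET replicate 1 (-0.45), HET replicate 2 (-0.58) or HET replicate 3 at 2 h (-0.71), with an adjusted p up to 0.096.

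Ndrg1, a gene induced by several stresses, read 10.30, 10.85 and 10.75 in untreated KO, 10.72, 10.78 and 10.91 at 2 h, and 10.27, 10.78 and 10.97 at 4 h. On the HET arrays it read 10.04, 10.16 and 11.04 untreated, 11.69, 11.17 and 10.98 at 2 h, and 12.01, 10.83 and 11.40 at 4 h. It rose by 1.00 in HET at 4 h (SE 0.303, adjusted p = 0.0181) although the arrays overlapped, and without the HET arrays numbered 1 the change was 0.51 (adjusted p = 0.18). It was also lost without untreated HET replicate 1 (0.81), untreated HET replicate 2 (0.87) or HET replicate 1 at 4 h (0.70). Mxi1, an antagonist of Myc, read 9.69, 9.81 and 9.49 in untreated KO, 9.59, 9.61 and 9.38 at 2 h, and 9.31, 9.31 and 9.29 at 4 h. HET gave 10.07, 9.34 and 9.85 untreated, 9.84, 9.30 and 9.43 at 2 h, and 9.12, 9.01 and 9.36 at 4 h. It fell by 0.59 in HET at 4 h (SE 0.17, adjusted p = 0.014), also with overlap, and without those arrays the change was -0.41 (adjusted p = 0.0656). Leaving out untreated HET replicate 1 (-0.43) or 3 (-0.54) alone also ended that call (adjusted p up to 0.0607). Bnip3, a receptor for the removal of mitochondria, had 0.64 in KO (adjusted p = 0.307) and 0.16 in HET (0.737) at 4 h, and the KO value was called with the block (0.0465) and without the HET arrays numbered 1 (0.045).

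The collagen hydroxylases split. Plod2 rose in HET at 4 h by 1.50 (SE 0.377, adjusted p = 0.0059, 2.83-fold), or by 1.01 without the HET arrays numbered 1 (adjusted p = 0.0259), and the KO value was 0.24 (adjusted p = 0.728). Plod1, a lysyl hydroxylase of the collagen helix, read 12.49, 12.73 and 12.49 in untreated KO, 12.44, 12.43 and 12.28 at 2 h, and 12.05, 12.34 and 12.00 at 4 h. Its HET signal was 12.88, 12.48 and 12.70 untreated, 12.37, 12.38 and 12.42 at 2 h, and 12.37, 12.04 and 12.26 at 4 h. It fell by 0.44 in KO (SE 0.119, adjusted p = 0.0185) and by 0.46 in HET (adjusted p = 0.0073) at 4 h, with no overlap in either genotype. The KO call was lost without untreated KO replicate 2 (-0.36) or KO replicate 1 (-0.40) or 3 (-0.38) at 4 h, with an adjusted p up to 0.0953. P4ha1 and P4ha2, catalytic subunits of the prolyl hydroxylase of collagen, were not called. P4ha1 had 0.40 in KO (adjusted p = 0.181) and 0.32 in HET (0.188) at 4 h. Leaving out HET replicate 1 gave 0.40 in KO (0.00415) and 0.46 in HET (0.00539), both called, and with the block KO was called (0.0313) and HET was not (0.0527). Among the 10 stromal markers, 1 rose in KO and 3 in HET at 4 h, where 6.48% and 15.7% of all genes rose. The part of these markers in the change of Plod2 was not tested.

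Over the number-matched pairs of arrays, 12 of 33 members had the same sign in all 6 pairs at 2 h, against 32.1% of all genes. At 4 h 20 of 33 did, against 51.8% (25.2% higher, 26.6% lower), so neither share stood out. The 9 that were higher in all 6 at 4 h were Adm, Edn1, Hif1a, Hk2, Hk3, P4ha1, Pfkfb3, Pfkp and Plod2. The 11 that were lower were Aldoa, Ankrd37, Egln1, Egln3, Epas1, Mxi1, Pdk1, Pfkfb4, Pfkm, Pkm and Plod1.

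Between 2 h and 4 h of LPS, Edn1 rose further in KO by 1.78 (SE 0.413, adjusted p = 0.0202) and was the only member called there, against 4.37% of all genes (2.69% higher). That call was lost without KO replicate 2 (1.56) or 3 (1.84) at 2 h, or KO replicate 1 (1.50) or 3 (1.86) at 4 h, with an adjusted p up to 0.125. In HET, Hk3 rose by 0.72 (adjusted p = 0.00146) and Vhl by 0.30 (adjusted p = 0.034), 2 of 33 against 8.18% of all genes (3.80% higher). The call of Vhl was lost in 4 of the fits without 1 array (adjusted p up to 0.155). The difference of Edn1 was 1.19 in HET (adjusted p = 0.0995). It was called with the block, and without the HET arrays numbered 1 it was 1.70 (adjusted p = 0.00411). The further rise of Edn1 is therefore not particular to KO. The difference of Pfkfb3 was 1.57 in KO (0.0845) and 1.40 in HET (0.095). With the block, 5 members were called in KO and 6 in HET, against 9.75% and 16.4% of all genes, and without the HET arrays numbered 1 there were 4 and 5, against 12.4% and 13.8%. Pfkfb3 and P4ha1 were among the added calls in both genotypes under both settings.

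Whether the genotypes responded differently was tested directly, as the KO response minus the HET response. With limma no member was called at 2 h or at 4 h, where 0.00% and 0.0513% of all genes were. At an unadjusted p under 0.05 there were 3 members (9.09%) at 2 h against 5.64% of all genes. At 4 h there were 6 (18.2%) against 7.2%, a larger share than that of all genes. Edn1 had differences of -2.04 at 2 h (95% interval -3.28 to -0.79, adjusted p = 0.52) and -1.45 at 4 h (-2.69 to -0.20, adjusted p = 0.615). Pfkfb4 had 0.70 (0.26 to 1.14, adjusted p = 0.531) and 0.84 (0.40 to 1.28, adjusted p = 0.33). Plod2 had -0.42 (-1.55 to 0.72, adjusted p = 1) and -1.26 (-2.40 to -0.12, adjusted p = 0.637), with the low KO signal noted above. With replicate number as a block Pfkfb4 at 4 h was called (adjusted p = 0.0492), against 0.503% of all genes (0.180% at 2 h), and no member was called at either time without the HET arrays numbered 1 (0.00513% and 0.267% of all genes). The responses that passed in one genotype and not in the other are therefore not shown to differ.

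HET replicate 1 carried its own pattern in these genes. At all 3 times 6 of the 33 members lay more than 0.5 units above the average of HET replicates 2 and 3, and none lay that far below, against 0.981% of all genes above and 3.97% below. Vegfa was 3.29, 2.09 and 1.85 higher untreated, at 2 h and at 4 h. Hk2 was 1.09, 1.40 and 1.21 higher, and Bnip3 was 1.23, 0.95 and 0.92 higher. Slc16a3, the exporter of lactate, was 0.94, 0.76 and 0.54 higher, and Pfkl and Pfkfb3 were the others. These are 3 arrays of 1 number, so the values are given without a test.

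**Figure D5:**
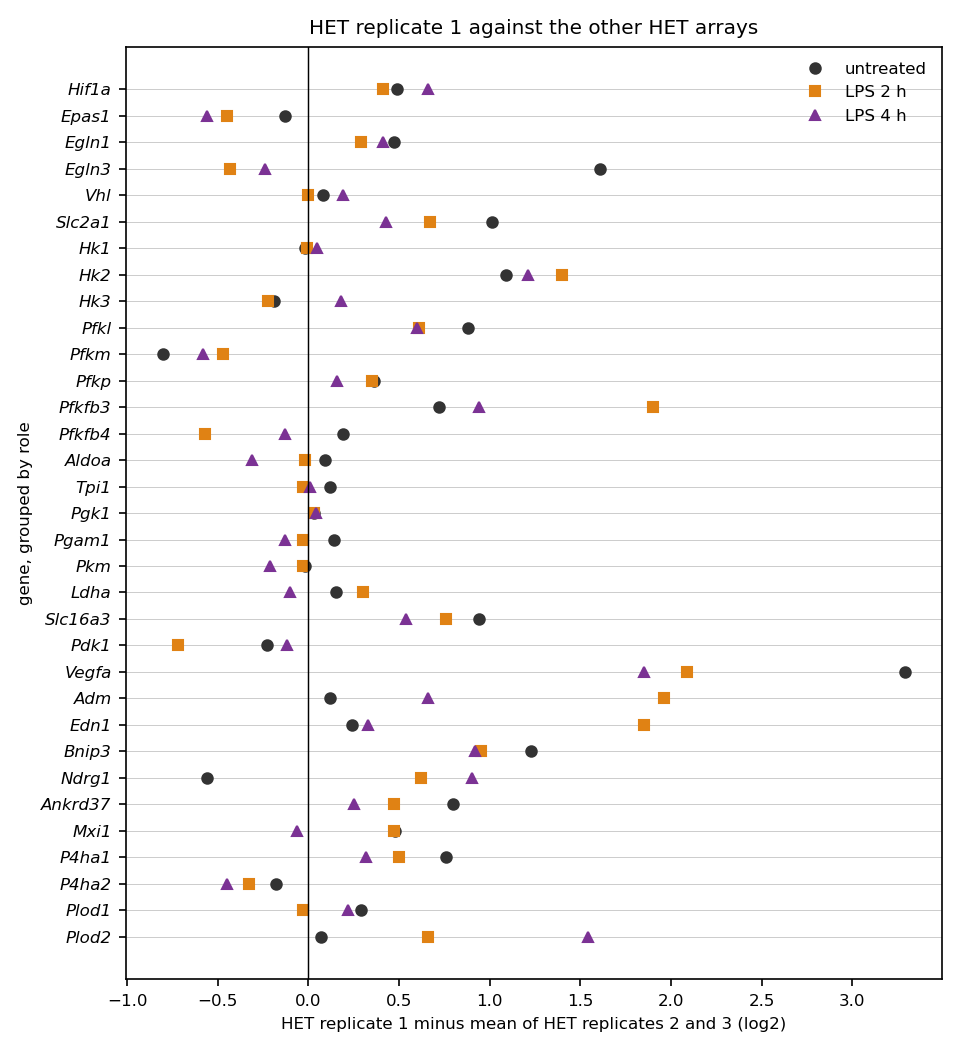
Points give HET replicate 1 minus the mean of HET replicates 2 and 3 in log2 units for each measured member, untreated, at 2 h and at 4 h. Vegfa, Hk2, Bnip3, Slc16a3, Pfkl and Pfkfb3 lie to the right of 0.5 at all 3 times, and Tpi1 and Pgk1 lie near 0.

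Genes of the same pathways outside the 33 were read from lists, and each gene named from them passed the test where a value is given. Of 20 measured genes of glycolysis and related sugar metabolism, 1 was higher and 4 lower in KO and 4 were higher and 8 lower in HET at 4 h of LPS, where 15.8% of all genes were called in KO and 36.4% in HET. Slc2a6, a glucose transporter family member of white cells, rose by 1.38 in KO and 1.62 in HET, while Pfkfb2 changed by -0.84 and -1.51, and Slc2a3 by -0.67 and -1.31. Pfkfb2, a further member of the Pfkfb family, was also higher in KO than in HET at 4 h by 0.75 (adjusted p = 0.0468). Among 10 genes that promote or restrain the entry of pyruvate into mitochondrial metabolism, 1 rose and 2 fell in KO and 1 rose and 3 fell in HET. The Pdk kinases are among those that restrain it. The kinase gene Pdk3 rose by 0.65 in KO and 1.39 in HET at 4 h, and Pdk2 fell by 0.62 in KO and 0.78 in HET.

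Of 30 further measured hypoxia targets, 1 rose and 4 fell in KO (16.7%) and 2 rose and 10 fell in HET (40%) at 4 h, shares near those of all genes (15.8% and 36.4%). The circadian repressor Bhlhe41 changed by -1.65 in KO and -3.08 in HET, and the chemokine receptor Cxcr4 by -2.47 and -2.71. Between genotypes 1, 3 and 1 of the 30 were called untreated, at 2 h and at 4 h, against 0.416%, 2.76% and 2.42% of all genes. Bhlhe41 was higher in KO at 4 h by 1.38 (adjusted p = 0.0173). At 2 h Narf was higher by 0.80 (adjusted p = 0.036), while Rsbn1 (-0.91, adjusted p = 0.00466) and Pgf, a relative of Vegfa (-0.80, 0.0467), were lower. Zfp395 was lower in untreated KO (-0.61, 0.0187). Of 10 further genes of oxygen sensing, 2 rose in KO (20%) and 3 in HET (30%) at 4 h, and none fell. Cited2, a repressor of HIF activity, was up by 1.09 in KO and 1.25 in HET. Cul2, the scaffold of the Vhl ligase, was up by 0.44 in KO and 0.72 in HET. Of 10 further genes of collagen modification, 2 rose in KO (20%) and 2 rose and 3 fell in HET (50%). P3h2 rose by 1.67 in KO and 1.83 in HET. Of all genes 15.8% were called in KO and 36.4% in HET, and with lists of 10 genes these shares are not read as different.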

How the data were processed

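The authors deposited log2 expression values per probe set for 18 arrays, made with RMA in Partek 6.5 per the submitters' processing notes (no further setting is stated in the sources used here). RMA fits the arrays together, so values are relative between arrays and bright or dim probe sets are compressed. The values were used as deposited, with array medians of 8.05 to 8.13. Arrays have no count depth. Of 25344 probe sets, the 1530 with several genes and the 2677 with none in the platform's annotation were left out, and the 21137 others gave 19475 genes (brightest probe set where a gene had several, 915 genes). Group means were fitted to all 18 arrays with limma 3.58.1 in R 4.3.3 (12 residual degrees of freedom), for 11 contrasts, each with Benjamini-Hochberg adjusted p under 0.05 over all genes. The fit was tested on simulated data with independent noise on each array. Such data lack the deviations that same-numbered arrays share, so the test does not cover them.

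Within a genotype, same-numbered arrays shared their deviations from the group means across genes (r 0.32 to 0.796, 18 pairs). Across genotypes r took both signs, -0.34 to 0.254 at the same time (9 pairs) and -0.353 to 0.39 at other times (18 pairs). The ranges overlap, and across genotypes the pairs of number 1 were all positive (0.02 to 0.39). The number was used as a block within genotype. Pairing comes from the data and the numbers in the labels. Values on every array are given for genes called between genotypes, for the largest called LPS changes and for Hif1a, Hk2, Slc2a1 and Ldha; values of Vegfa, Egln3 and Hk3 were chosen after they were seen. Members, lists and rules were chosen with earlier results of these data known. Alternatives were array centring, quantile normalization, dim genes left out (mean signal under 7.63), mean of probe sets, trend and robust prior, array weights, arrays of the contrast only, replicate blocks, and arrays left out. Figures used Python 3.11.15 and matplotlib 3.10.9.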

Additional observations from a re-analysis of the deposited data

How the results depend on the processing

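No called change turned its sign under any alternative, while uncalled values did: without the HET arrays numbered 1, 14 of 33 members changed sign in KO minus HET untreated. The counts of called members were as follows, in the order KO minus HET untreated, at 2 h and at 4 h, then LPS 2 h in KO and in HET, LPS 4 h in KO and in HET, and 4 h minus 2 h in KO and in HET. As reported they were 0, 2, 2, 2, 6, 5, 11, 1 and 2. With array weights they were 1, 3, 4, 4, 7, 13, 14, 5 and 5, where 0.97%, 4.38%, 6.43%, 11.5%, 16.3%, 27.2%, 41.6%, 15.3% and 12.8% of all genes were called. With the arrays of the contrast alone they were 0, 0, 0, 5, 2, 14, 5, 5 and 0, where the last 2 of these had 10.6% and 0.524% of all genes. Without the HET arrays numbered 1 they were 0, 2, 3, 5, 7, 14, 12, 4 and 5. With the number as a random replicate block within genotype they were 0, 2, 1, 3, 12, 15, 18, 5 and 6, and the difference in response at 4 h gave 1 in place of 0. With a fixed block within genotype the 6 LPS counts were 5, 17, 15, 23, 6 and 10 (8.14%, 27.8%, 28.6%, 55%, 11.1% and 18.7% of all genes), and with a fixed block across genotypes, which the pairing check does not bear out, the 3 genotype counts were 1, 4 and 5 (0.606%, 4.57% and 6.54%). Centring, quantile normalization, the trend with a robust prior and leaving out dim genes each gave 1 for KO minus HET at 4 h, and centring and the trend gave 1 for 4 h minus 2 h in HET. Leaving out 1 array at a time gave 0 to 0, 1 to 5, 1 to 5, 1 to 2, 3 to 8, 2 to 8, 9 to 17, 0 to 3 and 1 to 5, and 0 for both differences in response. Plod2 and Adm were among the dim genes left out, and the cause of the other moves was not tested. Of the single calls, 10 held in every alternative run: Edn1 for LPS in both genotypes at both times, Pfkfb4 in HET at both times and in KO at 4 h, and Hk3, Pfkfb3 and Plod2 in HET at 4 h. The HET call of Pfkfb3 at 2 h (leave-one-out 1.05 to 2.29) was lost without HET replicate 1 at 2 h. The replicate block changed the call of Pfkfb4 between genotypes at 4 h, and no other reported call was lost under it.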
